A study of Homo sapiens with 16 samples.

Results

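The genes of the A20 feedback system, TNFAIP3, TNIP1, TNIP2, TNIP3, CYLD and OTULIN, were taken as a list of 6 names out of 60644 annotated genes, 19962 of them protein-coding. Binding of p65 (RELA), the transactivating subunit of NFκB, was read in bins of 200 bp from 100 kb upstream to 50 kb downstream of each gene on GRCh38. A bin was listed in a group of libraries when its mean p65 signal there was at least 2 and at least 4 times the input. Listed bins with at most 1 unlisted bin between them were joined into a site, and each site is described by its highest bin.

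p65 was mapped by ChIP-Seq in HT29 and SW480, human colorectal adenocarcinoma cell lines, each in a line stably transfected with empty vector (mock) and a line stably transfected with ERβ (estrogen receptor beta, encoded by ESR2). Each of the 4 groups had 3 ChIP libraries and 1 input library, 16 in all. All cells had received TNFα (30 ng/ml, 30 min) and were crosslinked with DSG and then formaldehyde, they had been kept in hormone-depleted medium without estradiol, and no library of cells without TNFα was analysed here. The sources used here do not say whether a transfected line is a clone or a pool, so a mock line and its ERβ line may differ in more than ERβ, and p-values measure only the spread between these libraries.

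A20, the product of TNFAIP3, is an enzyme that removes and adds ubiquitin on signalling proteins below the TNF receptor and thereby dampens NFκB. TNFAIP3 is itself a classical NFκB target, which makes the system a negative feedback loop. TNIP1, TNIP2 and TNIP3 encode ubiquitin-binding partners of A20, while CYLD and OTULIN encode deubiquitinases that cleave, respectively, linear together with other signalling chains, and linear chains alone.

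A total of 14 sites (43 listed bins) lay in the windows of 4 of the 6 genes. TNIP1 had 5 sites, TNFAIP3 and CYLD had 4 each, and TNIP2 had 1. TNIP3 and OTULIN had none. Sites are named by their distance in kb from the transcription start site (TSS) of the gene, with minus for upstream.

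The sites of TNFAIP3 (ENSG00000118503.18) lay on chromosome 6. The promoter bin, chr6:137867201-137867400, overlapped the 5′ UTR, and the bin of the −55.8 kb site, chr6:137811401-137811600, lay in no annotated gene. The +6.2 kb site, chr6:137873401-137873600, was intronic, and the +15.4 kb site, chr6:137882601-137882800, was in the 3′ UTR exon. Those of TNIP1 (ENSG00000145901.16) lay on chromosome 5, on whose minus strand the gene is transcribed. Its promoter bin was chr5:151081001-151081200, and the −2.5 and −4.7 kb sites, chr5:151083401-151083600 and chr5:151085601-151085800, lay within introns of longer TNIP1 transcripts. The −6.3 kb (chr5:151087201-151087400) and −13.3 kb (chr5:151094201-151094400) sites were at starts of alternative TNIP1 transcripts. All 5 TNIP1 sites thus lay inside annotated TNIP1 transcripts or at the start of one.

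Several sites in the windows belonged by position to a neighbour. The only TNIP2 (ENSG00000168884.15) site, chr4:2799001-2799200 at −42.8 kb, was in the promoter and first exon of SH3BP2, which encodes an adaptor protein. Upstream of CYLD (ENSG00000083799.18) on chromosome 16, the −45.0 kb site, chr16:50697001-50697200, was the promoter of NOD2, the sensor of bacterial peptidoglycan. The −44.0 kb site, chr16:50698001-50698200, was in a NOD2 exon and UTR, and the −22.4 kb site, chr16:50719601-50719800, was in a NOD2 intron. Only the CYLD promoter site, chr16:50741801-50742000, was next to CYLD itself, inside its antisense transcript CYLD-AS1 and next to MIR3181. The data do not tell which gene a site acts on.

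The sequences below are those of the reference genome, not of the cell lines, and show the DNA under the sites on which the comparisons turn, with the κB consensus (the sequence that NFκB dimers bind) in capitals and each written 5′ to 3′ on the strand of the match. The first 5 are from sites listed in all 4 groups, including both matches in the TNFAIP3 promoter.
TNFAIP3 promoter, plus strand, chr6:137867194-137867223: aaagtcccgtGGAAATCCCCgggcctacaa
TNFAIP3 promoter, minus strand, chr6:137867182-137867211: ggatttccacGGGACTTTCCaaagtcacgt
TNFAIP3 +6.2 kb, plus strand, chr6:137873549-137873578: acttagcactGGGGAATTCCagatgttact
TNIP1 promoter, minus strand, chr5:151081057-151081086: ccagtctccgGGGACTTTCCcaggggtggg
CYLD promoter, minus strand, chr16:50741887-50741916: gccggccgaaGGGACTTTCCgctctgtcaa

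The capitals of the minus-strand match in the TNFAIP3 promoter, of the TNIP1 promoter and of the CYLD promoter read the same. The 2 TNFAIP3 matches lay at −50 and −62 bp from the TSS. The former, the match inside the promoter bin, lay 8 bp from the summit of the signal within that bin. The next 4 are from sites with a higher signal in SW480 ERβ than in SW480 mock.
TNIP1 −4.7 kb, plus strand, chr5:151085595-151085624: tgacactgggGGAAATTCCCagcctcgtca
TNIP2 −42.8 kb, plus strand, chr4:2798997-2799026: cacggggcctGGGAAACTCCaaagccggcg
CYLD −45.0 kb, plus strand, chr16:50697103-50697132: cttttcctttGGGAATTTCCcttgaaggtg
CYLD −44.0 kb, minus strand, chr16:50698074-50698103: ttataaatcaGGGACATTCCcagacactca

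Of the 14 site bins, 12 (85.7%) held a κB match, against 54.5% of the 7300 sites listed by the same rule over the genome, 32% of the 25545 bins tested and 4.45% of all 5932 bins in the windows of the 6 genes. The match lay between 0 and 98 bp from the summit. The summit was taken inside the same 200-bp bin, so this distance is limited by the bin. AP-1, the dimer of JUN and FOS proteins, has the consensus TGACTCA or TGAGTCA, which was present in 3 of the 14 bins (21.4%), against 12.1%, 8.81% and 3.52% of the same sets. Both bins without κB held AP-1, shown in capitals below. The TNIP1 −2.5 kb bin held both motifs. Both strands were searched, with windows of 200 bp, and a match is a description of the DNA and not evidence of binding to it.
TNFAIP3 −55.8 kb, plus strand, chr6:137811581-137811607: tagctgaccgTGAGTCAcgtcgttgct
CYLD −22.4 kb, plus strand, chr16:50719610-50719636: ggtgtgacccTGAGTCAccctcgctgt
TNIP1 −2.5 kb, plus strand, chr5:151083543-151083569: gggagctgagTGACTCAggcaggtgca

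Signal is given as the mean tag density per base over a bin, which the authors had scaled to 10 M tags per library (M, mega). The tracks hold no read counts, so depth is unknown from them, and binding in fewer cells cannot be told apart from less binding per cell. Over 932 bins listed in all 4 groups, replicate 1 of HT29 mock and of HT29 ERβ and replicates 2 and 3 of SW480 ERβ stood above the mean library by 0.37 to 0.78 (log2), and the other 8 libraries stood below it by as much as 0.52. Values with the libraries rescaled on these bins are given beside the site results whose call they change. Rescaling sets the libraries level over these bins, so any change common to them is removed. The exon to intron signal ratio at ESR2 was 4.55 to 8.31 in the HT29 ERβ ChIP libraries against 1.10 to 1.39 in HT29 mock, and 2.66 to 3.29 in SW480 ERβ against 1.36 to 1.62 in SW480 mock, so each library matched its ERβ label. The labels name the p65 antibody and TNFα on the inputs too, and the ERβ inputs came from another set of libraries. The identity of the cell lines was taken from the labels.

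SW480 ERβ listed all 14 sites, SW480 mock 7, and both HT29 groups 10. The listed bins numbered 34 in HT29 mock, 29 in HT29 ERβ, 14 in SW480 mock and 35 in SW480 ERβ. SW480 ERβ also listed the most and SW480 mock the fewest over the genome: of 7300 sites, 46.8% were listed in HT29 mock, 32.1% in HT29 ERβ, 14.6% in SW480 mock and 81.6% in SW480 ERβ. The 4 groups shared 6 of the 14 sites, which were the TNFAIP3 promoter, −55.8 kb and +6.2 kb, the TNIP1 promoter and −6.3 kb, and the CYLD promoter. Of the 7300 sites, 677 (9.27%) were listed in all 4 groups. The 3 sites upstream of CYLD were listed in SW480 ERβ alone, as were 3383 (46.3%) of the 7300. The TNIP1 −2.5, −4.7 and −13.3 kb sites and the TNIP2 site were missing in SW480 mock alone, and TNFAIP3 +15.4 kb was listed in the SW480 groups alone. Listing uses the group means, so these counts are a description, and a site that only 1 group listed had to differ from the others in its mean or in its ratio to input. Close to the limits, the bin at +0.3 kb of TNIP1 was listed in HT29 mock (mean 2.03, 4.62 times input) and missed in HT29 ERβ (mean 2.08, 3.99 times input), the bin at +12.7 kb of TNIP1 was missed in SW480 ERβ with a mean of 1.99, and CYLD −22.4 kb was missed in SW480 mock with a mean of 7.57 at 3.90 times input.

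**Figure D1:**
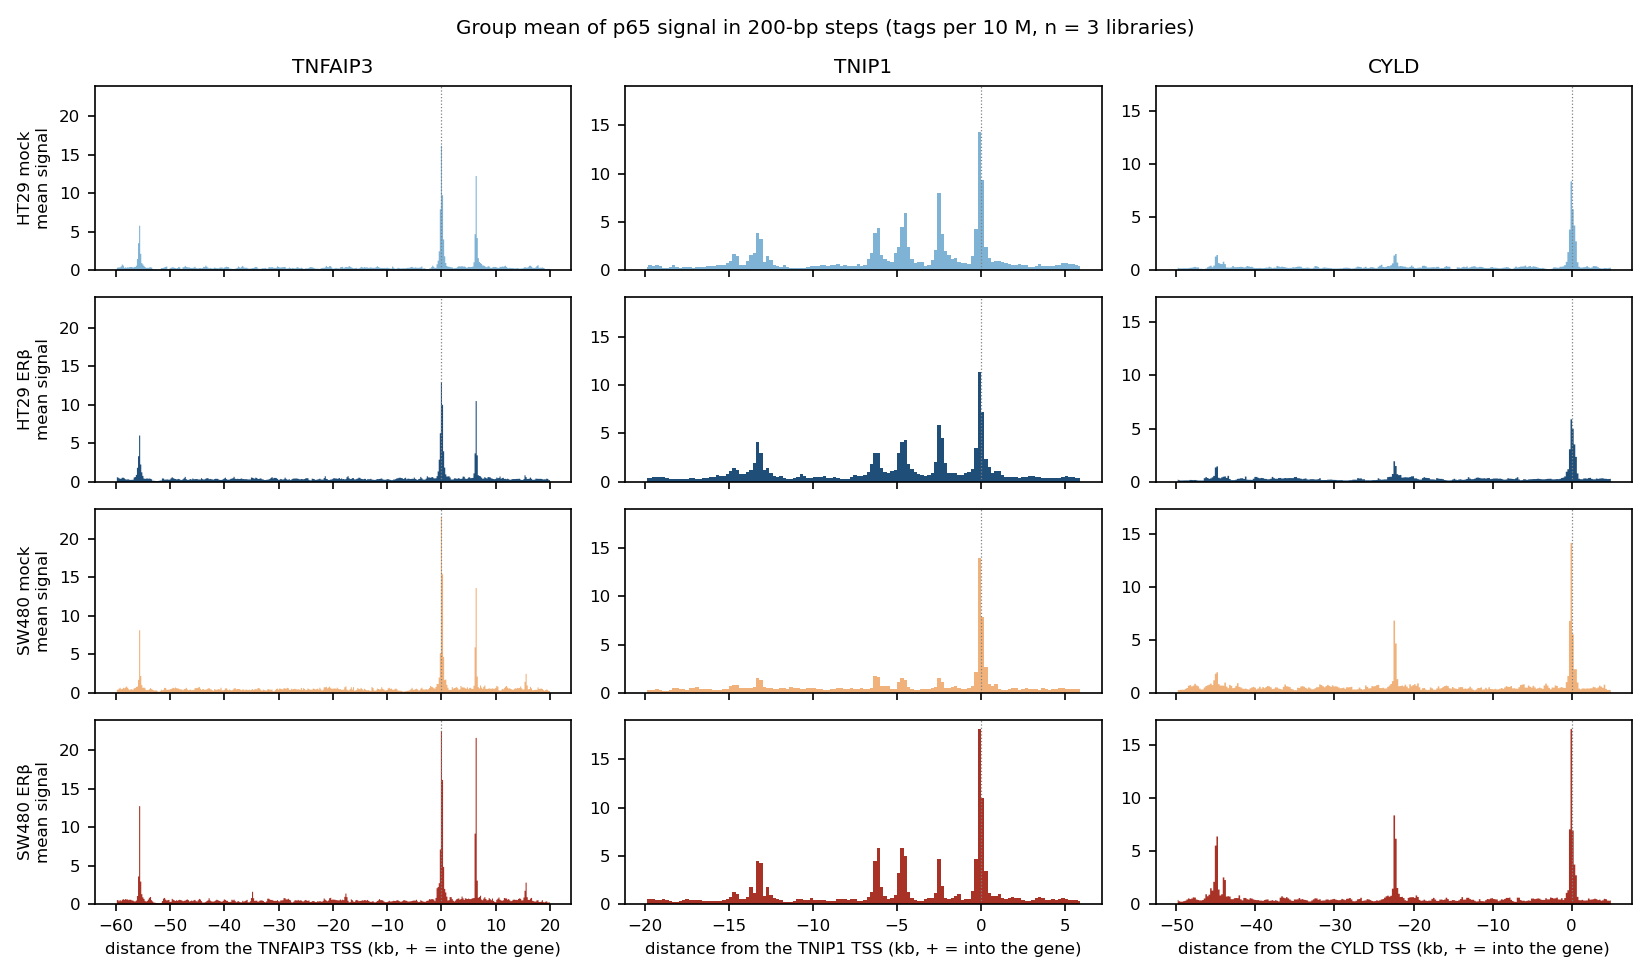
Group mean of the p65 signal (y axis, tags per 10 M, 3 libraries each) in steps of 200 bp against the distance from the TSS (x axis, kb) for TNFAIP3, TNIP1 and CYLD, with 1 horizontal band of panels for each group and the same y axis within a gene. The promoter signal of TNFAIP3 and TNIP1 is present in all 4 groups, while the TNIP1 signal between −2.5 and −13.3 kb is low in SW480 mock and the CYLD −45.0 kb signal is high in SW480 ERβ alone.

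The TNFAIP3 promoter was among the most strongly bound promoters of the genome in every group. It was read on the interval chr6:137867119-137867318, which spans both κB matches. The interval stood at 24.5, 12.3 and 15.98 in the 3 HT29 mock libraries, at 20.9, 12.4 and 10.1 in HT29 ERβ, at 29.8, 29.8 and 23.8 in SW480 mock and at 19.1, 35.7 and 28.5 in SW480 ERβ. The means were 17.6 ± 6.23, 14.5 ± 5.68, 27.8 ± 3.46 and 27.8 ± 8.31 (SD, n = 3), and the inputs were between 0.588 and 1.03. Mock and ERβ libraries overlapped in both lines. By the highest bin of each promoter among 19962 protein-coding genes, TNFAIP3 ranked 13 in HT29 mock, 11 in HT29 ERβ, 1 in SW480 mock and 5 in SW480 ERβ.

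ERβ against mock gave differences of −0.28 in HT29 (exact permutation test, 2-sided p = 0.6) and −0.04 in SW480 (exact permutation test, p = 0.8) on the log2(signal + 1) scale for this interval. The line differences were 0.68 in mock (exact permutation test, p = 0.2) and 0.91 in ERβ (exact permutation test, p = 0.2), with SW480 higher, and 3 libraries against 3 cannot give an exact p under 0.1. In the fit over all bins (limma, adjusted over 25546 tests), the interval was higher in SW480 ERβ than in HT29 ERβ (adjusted p = 0.0266), and the difference between the mock lines had an adjusted p of 0.126. The call between the ERβ lines was lost when the input ratio of the window was taken off (0.65, adjusted p = 0.126), and the difference went to 0.30 (adjusted p = 0.0430) with the libraries rescaled as described next. After rescaling on the bins that all groups list, the interval was lower in SW480 ERβ than in SW480 mock (log2 difference −0.65, SE 0.13, limma adjusted p = 0.000335). The size and the call of the ERβ difference at the interval in SW480 thus depend on the scaling. The bins used for rescaling include the TNFAIP3 promoter bin, and a change common to them is removed. The call therefore cannot tell a loss at the interval from a gain at the other shared bins. With rescaled libraries the smallest exact p (0.1) was reached as well. Rescaling also gave a call between the mock lines, with the interval higher in SW480 by 0.87 (SE 0.13, limma adjusted p = 1.01e-07, exact permutation test p = 0.1).

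The −55.8 kb and +6.2 kb sites of TNFAIP3 were bound in all groups. At −55.8 kb the HT29 mock libraries stood at 7.94, 5.20 and 3.80, HT29 ERβ at 7.90, 5.12 and 4.01, SW480 mock at 6.81, 6.46 and 6.29 and SW480 ERβ at 9.35, 13.6 and 11.3. All 3 SW480 ERβ libraries thus lay above all other libraries, while the HT29 groups overlapped. The intronic +6.2 kb site stood at 17.0, 9.24 and 9.83 in HT29 mock, 11.1, 10.7 and 7.96 in HT29 ERβ, 10.4, 13.3 and 20.2 in SW480 mock and 14.7, 28.8 and 27.1 in SW480 ERβ. Here the SW480 groups overlapped through replicate 1 of SW480 ERβ and replicate 3 of SW480 mock.

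Every ChIP library lay above all 4 inputs at both sites. The log2 differences between SW480 ERβ and SW480 mock were 0.71 (SE 0.39, limma adjusted p = 0.174) at −55.8 kb and 0.64 (SE 0.37, adjusted p = 0.197) at +6.2 kb. With the replicate number as a block, both were called higher (adjusted p = 0.00415 and 0.0101), and with rescaled libraries both fell to values near 0 (0.14 and 0.04). The +15.4 kb site in the 3′ UTR exon was a weak site listed in the SW480 groups only. It stood at 0.330, 0.401 and 0.594 in HT29 mock and 0.860, 0.567 and 0.842 in HT29 ERβ, against 2.03, 2.37 and 3.04 in SW480 mock and 1.72, 3.28 and 3.46 in SW480 ERβ. No HT29 library reached the lowest SW480 library, and the SW480 values were about those that the listing limit requires. By ratio to input, HT29 ERβ (3.98, over an input of 0.190) was close to SW480 mock (4.71) and SW480 ERβ (5.13), while HT29 mock stood at 0.865. By signal, the 4 sites of TNFAIP3 therefore had 3 patterns: shared and strongest at the promoter, shared at −55.8 and +6.2 kb, and in SW480 alone at +15.4 kb. By ratio to input, +6.2 kb stood above the promoter bin in HT29 mock (31.65 against 21.99) and HT29 ERβ (43.4 against 21.9). The same held in SW480 ERβ (63.6 against 36.8), while in SW480 mock it stood slightly below (19.5 against 21.0).

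**Figure D2:**
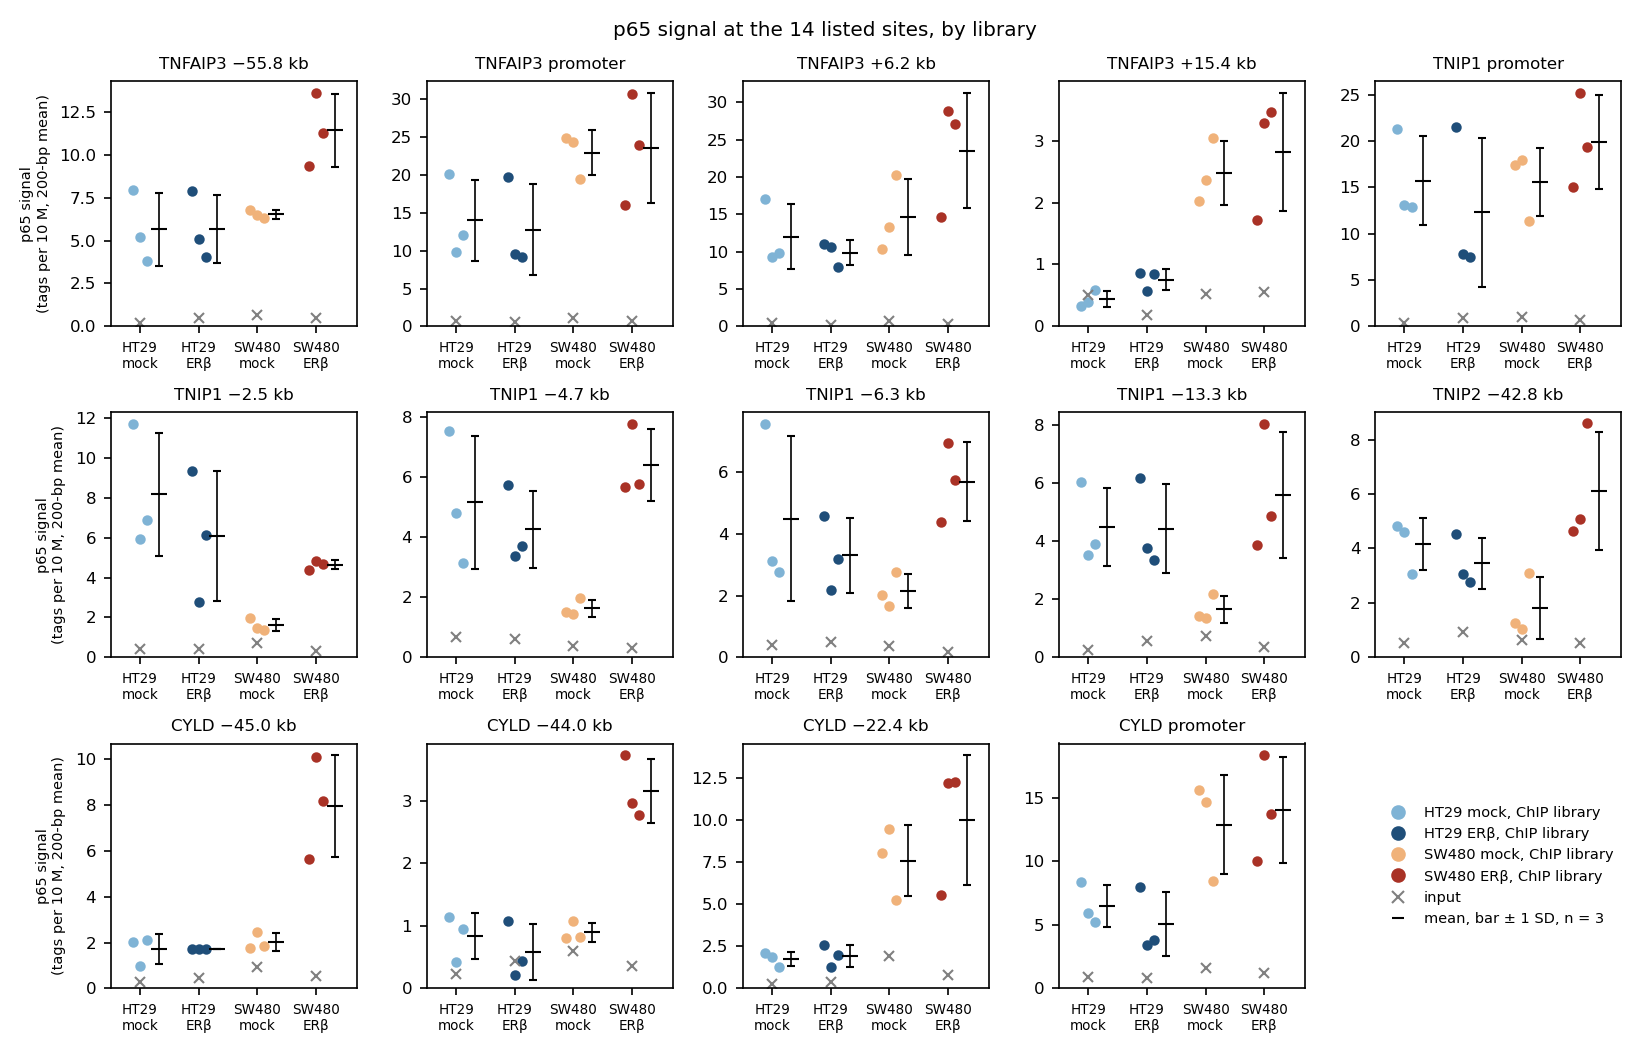
Signal of each ChIP library (points, y axis, tags per 10 M) at the 14 sites, by group, with the mean and 1 SD (bars, n = 3) and the input of the group (crosses). At the TNFAIP3, TNIP1 and CYLD promoters mock and ERβ libraries overlap in both lines. At CYLD −45.0 and −44.0 kb, the upstream TNIP1 sites, TNFAIP3 −55.8 kb and TNIP2 −42.8 kb the 3 SW480 ERβ libraries lie above the 3 SW480 mock libraries. The share of all bins with this separation is not given.

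TNIP1, which encodes the A20 partner ABIN-1, had a promoter site of similar height to that of TNFAIP3 in HT29. The bin at −66 bp stood at 21.3, 13.1 and 12.9 in HT29 mock, 21.6, 7.83 and 7.53 in HT29 ERβ, 17.4, 17.98 and 11.4 in SW480 mock and 15.1, 25.2 and 19.4 in SW480 ERβ. The 4 groups overlapped, and none of the comparisons was called at this bin in the fit over all bins. Alternatives that called it are given below. Its ranks among promoters were 10, 12, 8 and 11 in the same order of groups.

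The 4 upstream TNIP1 sites, in contrast, were low in SW480 mock. At −2.5 kb, HT29 mock stood at 11.7, 5.93 and 6.92, HT29 ERβ at 9.33, 2.79 and 6.15, SW480 mock at 1.97, 1.49 and 1.39 and SW480 ERβ at 4.39, 4.85 and 4.70. At −4.7 kb the values were 7.51, 4.78 and 3.15 in HT29 mock, 5.72, 3.35 and 3.69 in HT29 ERβ, 1.503, 1.45 and 1.96 in SW480 mock and 5.65, 7.76 and 5.76 in SW480 ERβ. At both sites every SW480 mock library lay below every library of the other 3 groups. The −13.3 kb site had means of 4.49 ± 1.36 in HT29 mock, 4.43 ± 1.53 in HT29 ERβ, 1.66 ± 0.466 in SW480 mock and 5.60 ± 2.18 in SW480 ERβ (SD, n = 3), and the −6.3 kb site had means of 4.49 ± 2.67, 3.31 ± 1.21, 2.15 ± 0.560 and 5.69 ± 1.27. The −6.3 kb site was the only upstream TNIP1 site that SW480 mock listed, and there 1 HT29 ERβ library (2.17) lay within the range of SW480 mock.

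At the TNIP2 site, at the SH3BP2 promoter, the mean was also lowest in SW480 mock. It stood at 4.84, 4.602 and 3.06 in HT29 mock, 4.53, 3.07 and 2.77 in HT29 ERβ, 1.26, 1.047 and 3.11 in SW480 mock and 4.63, 5.10 and 8.59 in SW480 ERβ. Replicate 3 of SW480 mock stood within the HT29 range, and all SW480 ERβ libraries were above it. No promoter bin of TNIP2 itself was listed. The highest, chr4:2746201-2746400, lay inside the gene near the start of an alternative transcript, not at the TSS used for distances. Its means were 0.789, 0.474, 0.714 and 1.51 in the 4 groups against inputs of 0.321 to 0.550.

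The CYLD promoter was listed in all groups. The values were 8.33, 5.89 and 5.19 in HT29 mock, 7.99, 3.39 and 3.79 in HT29 ERβ, 15.6, 14.7 and 8.40 in SW480 mock and 10.1, 18.4 and 13.7 in SW480 ERβ. Every SW480 library was above every HT29 library, the closest being 8.40 and 8.33. The SW480 inputs were higher at this bin as well, at 1.60 in mock and 1.22 in ERβ against 0.923 and 0.800 in HT29. The rank of the CYLD promoter was 79 in HT29 mock, 120 in HT29 ERβ, 13 in SW480 mock and 41 in SW480 ERβ.

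At the NOD2 promoter, at −45.0 kb of CYLD, signal was high in SW480 ERβ alone. The site stood at 2.04, 0.977 and 2.13 in HT29 mock, 1.72, 1.71 and 1.70 in HT29 ERβ, 1.76, 2.47 and 1.83 in SW480 mock and 5.65, 10.1 and 8.18 in SW480 ERβ. The nearby −44.0 kb site had means of 0.836 ± 0.374, 0.576 ± 0.447, 0.900 ± 0.152 and 3.16 ± 0.512 (SD, n = 3), which in the first 3 groups were 3.66, 1.31 and 1.53 times their inputs and in SW480 ERβ 8.77 times. The −22.4 kb site followed the cell line instead, with 2.11, 1.85 and 1.26 in HT29 mock, 2.55, 1.25 and 1.96 in HT29 ERβ, 8.001, 9.43 and 5.27 in SW480 mock and 5.54, 12.2 and 12.3 in SW480 ERβ. The input of SW480 mock was 1.94 at this bin, higher than the 0.240 to 0.817 of the other inputs, and the ratio to input of 3.90 kept the site unlisted in SW480 mock.

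TNIP3 and OTULIN showed no listed bin. TNIP3 (ENSG00000050730.16) had no bin high enough to be tested. Its highest bin, near the TSS, had means of 0.688 ± 0.360 in HT29 mock, 0.637 ± 0.480 in HT29 ERβ, 0.0933 ± 0.0351 in SW480 mock and 0.333 ± 0.285 in SW480 ERβ (SD, n = 3). Over its whole window the inputs were 0.329 and 0.305 in HT29 against 0.157 and 0.174 in SW480, so the background itself was lower there in SW480. For OTULIN (ENSG00000154124.6), the bin at −418 bp from the TSS passed the test filter with means of 1.42 ± 0.479, 1.57 ± 0.226, 1.46 ± 0.0957 and 2.61 ± 0.268 over inputs of 0.617 to 1.06, and no comparison was called. In SW480 ERβ the OTULIN bin passed the limit on the mean and missed that on the ratio to input.

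ERβ against mock was then tested in each line by limma over 25546 bins that had passed a filter blind to group, and a bin was called at an adjusted p under 0.05. In HT29, no member site was called, and none of the 14 had an unadjusted p under 0.05. The differences ranged from −0.45 at the TNIP1 promoter to 0.28 at TNFAIP3 +15.4 kb with a median of −0.20, beside a median of −0.11 over all bins. Over the genome 2 bins were called in HT29 (0.00783% of all bins tested), while 434 had an unadjusted p under 0.05, so the HT29 comparison gave almost no calls anywhere. The SE at the 14 sites was 0.26 to 0.39. A call over 25546 bins takes a difference of several SE, so differences well above those seen could also have gone uncalled. With the replicate number as a block the SE was 0.19 to 0.22 and 2368 bins had an unadjusted p under 0.05, but again no site was called. The block gave −0.45 (SE 0.21, adjusted p = 0.513) at the TNIP1 promoter, −0.44 (SE 0.21, adjusted p = 0.517) at TNIP1 −2.5 kb and −0.36 (SE 0.22, adjusted p = 0.633) at the CYLD promoter. At 5 sites, the TNFAIP3 promoter bin, TNIP1 −2.5 kb, TNIP2 −42.8 kb, CYLD −44.0 kb and the CYLD promoter, the HT29 ERβ library stood below the HT29 mock library of the same number in all 3 pairs, and at TNFAIP3 +15.4 kb it stood above it in all 3. On the 932 bins listed in all 4 groups each HT29 ERβ library also stood below its mock pair. The values there were 0.37, −0.48 and −0.52 against 0.53, −0.30 and −0.23 (log2). The share of all bins with this pattern was not computed, so the pattern is a description and not a result about these sites.

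In SW480, p65 signal was higher with ERβ at 7 of the 14 sites and lower at none, in the fit without the replicate block. All 7 lay upstream of the TSS of the gene they are named by. Among them, TNIP1 −6.3 and −13.3 kb were at starts of alternative TNIP1 transcripts. TNIP2 −42.8 kb was at the SH3BP2 promoter and CYLD −45.0 kb at the NOD2 promoter. All bins tested gave 18.8% called higher, and the genome split went from 4791 higher and 1 lower to 1850 higher and 83 lower with rescaled libraries, where 6 of the 7 sites were still called higher. Because sites could be listed by SW480 ERβ alone, the fairer count is that over the 73 bins of the 6 windows that passed the filter blind to group, of which 16 (21.9%) were called higher, close to the share over the genome. The 16 bins comprised 12 of 31 at TNIP1, 2 of 14 at CYLD, 2 of 6 at TNIP2, none of 21 at TNFAIP3 and not the 1 bin of OTULIN.

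The largest difference was 1.55 (SE 0.34, limma adjusted p = 0.000546) at CYLD −45.0 kb, a 2.92-fold higher signal + 1. At TNIP1 −4.7 kb it was 1.48 (SE 0.37, adjusted p = 0.00238) and at the TNIP2 site 1.37 (SE 0.37, adjusted p = 0.00447). The remaining 4 called sites, TNIP1 −13.3 kb (1.28), CYLD −44.0 kb (1.13), TNIP1 −2.5 kb (1.12) and TNIP1 −6.3 kb (1.09), had adjusted p-values between 0.000969 and 0.0293. All bins had a median of 0.43 in this comparison, which rescaling took to 0.07. Relative to that median, the 7 sites were higher by 0.66 (TNIP1 −6.3 kb) to 1.12 (CYLD −45.0 kb).

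At the TNFAIP3, TNIP1 and CYLD promoter bins no difference was called as scaled by the authors. The differences were 0.00 (4.19e-05, SE 0.36) at the TNFAIP3 promoter, 0.33 (SE 0.37) at the TNIP1 promoter and 0.12 (SE 0.39) at the CYLD promoter, with adjusted p-values of 1.00, 0.510 and 0.832, and with the libraries rescaled these 3 took negative values, −0.61, −0.27 and −0.47, of which that of TNFAIP3 was called lower (adjusted p = 0.00167). CYLD −22.4 kb (0.32) and TNFAIP3 +15.4 kb (0.11) were not called either. With the replicate number as a block 9 of the 14 sites were called higher, the 7 above with TNFAIP3 −55.8 and +6.2 kb, while the share over all bins rose to 47.8%.

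The count of 7 moved with single libraries. It was 3 without SW480 mock replicate 1 or without SW480 mock replicate 2, and 4 without SW480 ERβ replicate 2 or without SW480 ERβ replicate 3. In these 4 fits the higher calls over all bins fell from 4791 to 2177, 2602, 2147 and 2292. CYLD −45.0 and −44.0 kb had been listed in SW480 ERβ alone, so their calls are a description and say nothing of stability. TNIP1 −4.7 kb, which both HT29 groups listed too, was called under all 24 alternatives tried, and TNIP1 −6.3 kb was lost when the libraries were rescaled (0.59, adjusted p = 0.0625).

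**Figure D3:**
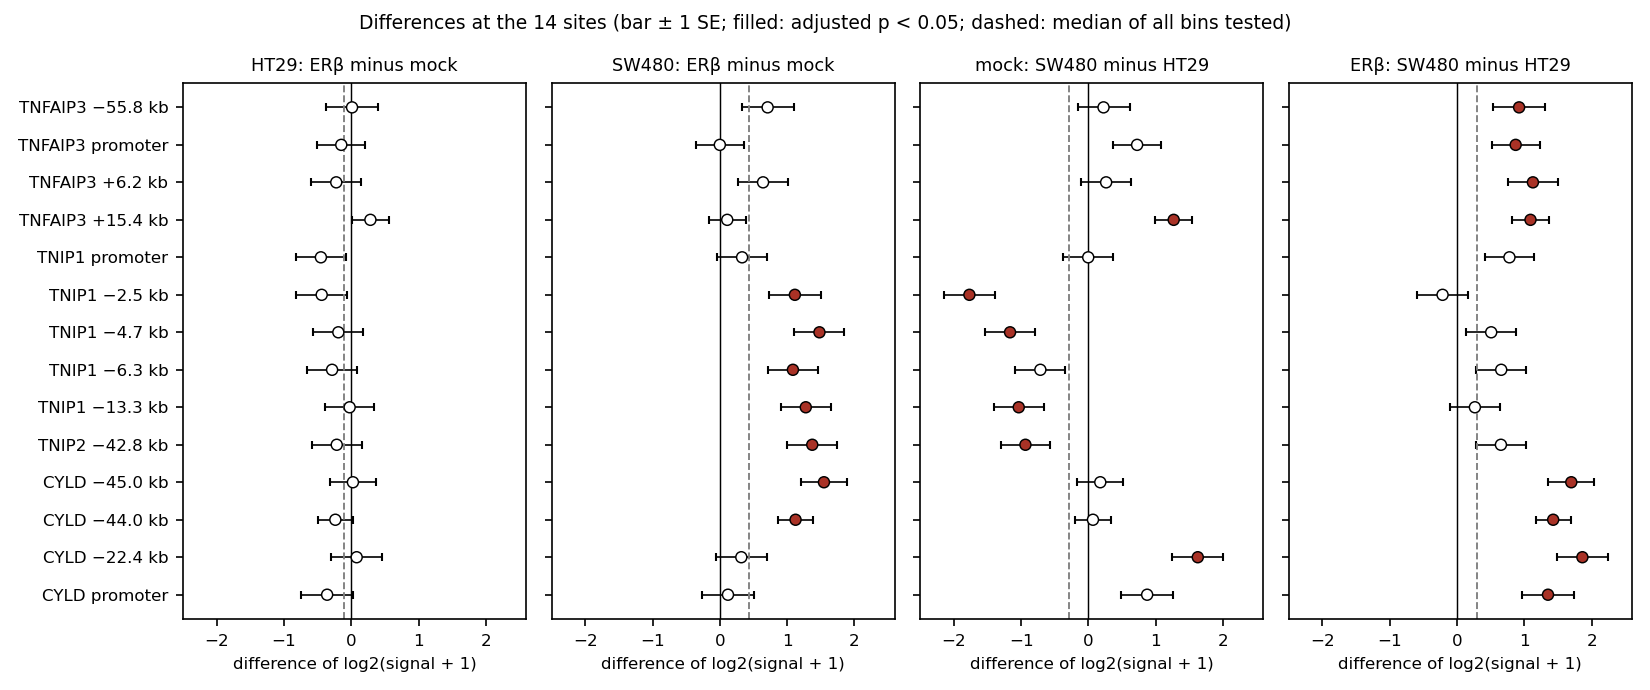
Differences of log2(signal + 1) at the 14 sites (x axis) in 4 comparisons, with 1 SE (bars), filled points for adjusted p under 0.05 and the median of all bins tested (dashed). In HT29 no point is filled, in SW480 7 upstream sites are filled on the side of ERβ, and between the mock lines the filled TNIP1 and TNIP2 sites lie below 0 and the filled TNFAIP3 and CYLD sites above it.

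**Figure D4:**
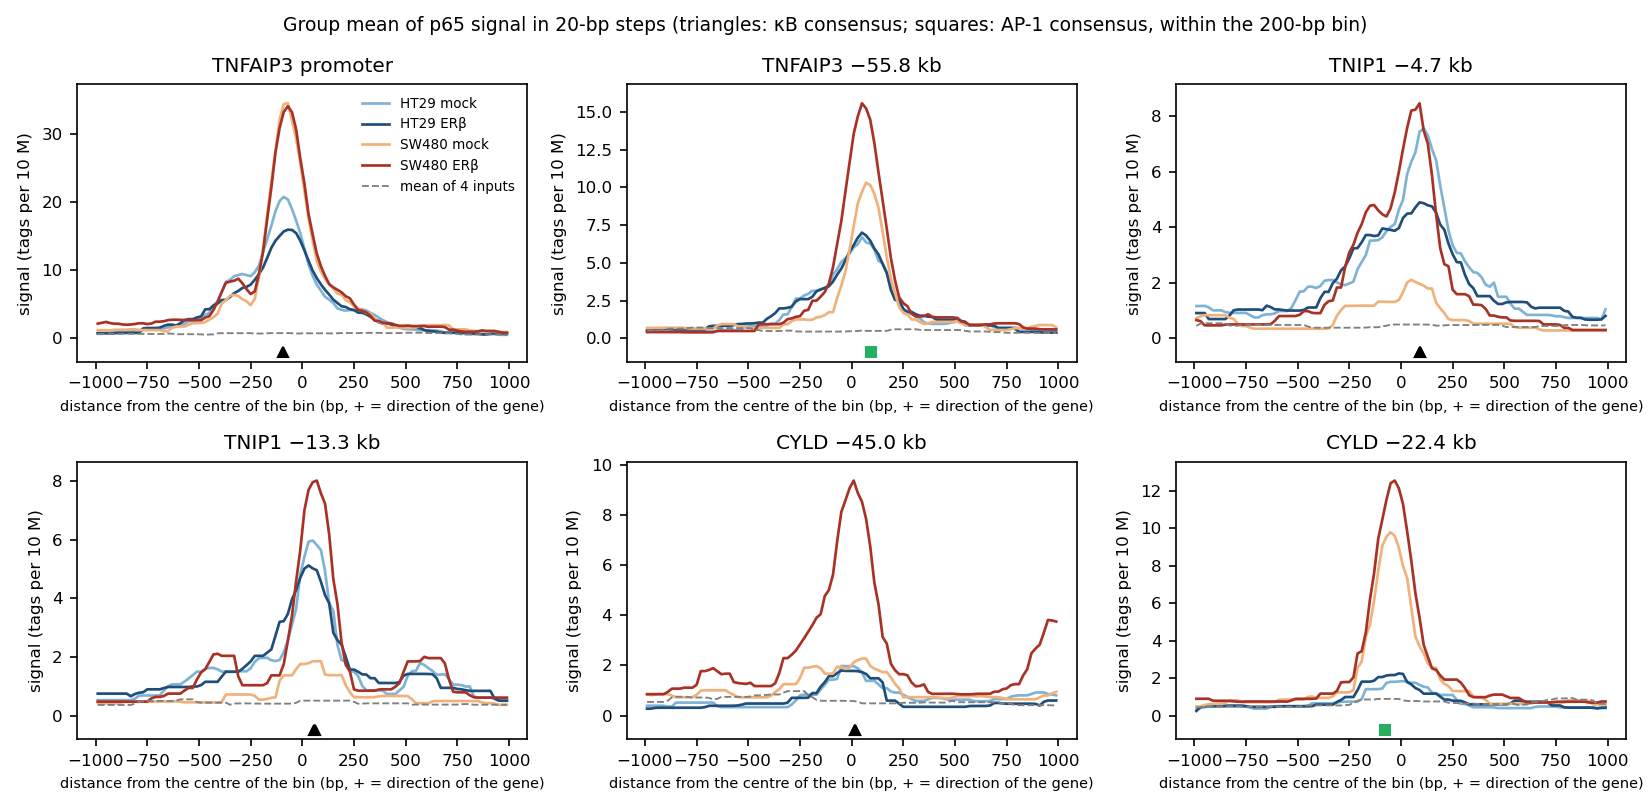
Group mean of the signal (y axis, tags per 10 M) in steps of 20 bp around the centre of 6 site bins (x axis, bp, plus in the direction of the gene), with the mean of the 4 inputs (dashed) and the places of κB (triangles) and AP-1 (squares) matches inside the bin. The 2 SW480 curves are close to each other around the summit of the TNFAIP3 promoter and are apart at TNIP1 −4.7 kb, TNIP1 −13.3 kb and CYLD −45.0 kb. In each view the motif is within 42 bp of the highest point inside the bin.

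The effect of ERβ in SW480 exceeded that in HT29 at 4 of the 14 sites by the interaction term of the same fit, against 7.08% of all bins. These were TNIP1 −4.7 kb (difference of effects 1.67, SE 0.53, limma adjusted p = 0.0365), TNIP2 −42.8 kb (1.59, SE 0.52, adjusted p = 0.0444), CYLD −45.0 kb (1.52, SE 0.49, adjusted p = 0.0392) and CYLD −44.0 kb (1.36, SE 0.37, adjusted p = 0.0149). None was called in the other direction. The paper reports a higher level of the transduced ERβ in SW480 than in HT29, so the effects were not compared at equal ERβ levels. The ESR2 signal ratios above served only to check the labels. Each effect is the difference between 1 ERβ line and 1 mock line. CYLD −45.0 and −44.0 kb had been listed in SW480 ERβ alone, so their calls are a description. Over the 73 bins that passed the filter in the windows, 7 (9.59%) were called. All bins had a median of 0.56, so at the 4 sites the excess over the whole genome was smaller than the differences of effects themselves. With the replicate number as a block, 9 of the 14 sites and 40.2% of all bins were called. The count of 4 was not stable to single libraries. It was 0 without HT29 ERβ replicate 2, HT29 ERβ replicate 3 or SW480 mock replicate 1, 1 without HT29 mock replicate 1, SW480 mock replicate 2, SW480 ERβ replicate 2 or SW480 ERβ replicate 3, and 2 without SW480 mock replicate 3. It was 8 without HT29 ERβ replicate 1 and 7 without SW480 ERβ replicate 1. Higher calls over the 25546 bins moved with it, from 1809 to 6417 and 4971 in these 2 fits. In the fits with fewer sites called they numbered 595 to 1348. With rescaled libraries TNIP1 −4.7 kb (1.00, adjusted p = 0.0377) was the only one of the 14 called, and the calls over the genome went from 1809 to 547 higher.

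Between the mock lines, 3 upstream TNIP1 sites and the TNIP2 site were lower in SW480. In SW480 mock 2 sites were higher than in HT29 mock (6.38% of all bins), TNFAIP3 +15.4 kb by 1.27 (SE 0.28, limma adjusted p = 0.000207) and CYLD −22.4 kb by 1.63 (SE 0.38, adjusted p = 0.000452). Neither was listed in an HT29 group, so both calls are a description. Lower were 4 sites (24.5% of all bins), TNIP1 −2.5 kb (−1.77, SE 0.38, adjusted p = 0.000166), TNIP1 −4.7 kb (−1.16, adjusted p = 0.0112), TNIP1 −13.3 kb (−1.04, adjusted p = 0.0238) and TNIP2 −42.8 kb (−0.94, adjusted p = 0.0417). By gene, 17 of 31 tested TNIP1 bins were lower and none higher, 3 of 6 TNIP2 bins were lower, 3 of 14 CYLD bins were higher, and of 21 TNFAIP3 bins 2 were higher and 1 was lower. Over the 73 bins this made 5 higher (6.85%) and 21 lower (28.8%), close to the shares over the genome.

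The count of 6 was 3 without SW480 mock replicate 1 or SW480 mock replicate 2. With rescaled libraries there were 10 calls, 5 in each direction, now with the TNFAIP3 promoter (0.92), TNFAIP3 +6.2 kb (0.45) and the CYLD promoter (1.06) higher and TNIP1 −6.3 kb (−0.56) lower. The split of all calls over the genome changed with it, from 1630 higher and 6269 lower to 3687 higher and 7904 lower.

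The input signal moved with the line comparison at CYLD. The input over the CYLD window was higher in SW480 mock than in HT29 mock by 0.96 (log2), beside 0.41 over the TNFAIP3 window and 0.13 over the TNIP1 window. With the input ratio taken off, CYLD −22.4 kb was no longer called (0.66, adjusted p = 0.172). The CYLD promoter difference, not called before either (0.87, adjusted p = 0.0742), went to −0.09. At CYLD −44.0 kb the difference went from 0.07 to −0.89 (limma adjusted p = 0.00553). The ratio was taken without the pseudocount of 1, so at low signal it takes off too much. Signal at CYLD −44.0 kb was low, with means of 0.836 in HT29 mock and 0.900 in SW480 mock, so no conclusion is drawn from that call. In the same fit TNFAIP3 +15.4 kb was at 0.85, and the 3 lower TNIP1 sites and the TNIP2 site were still called.

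Between the ERβ lines, 8 sites were higher in SW480 (30.0% of all bins) and none was lower (9.95% of all bins). They were the 4 sites of TNFAIP3, with differences of 0.87 at the promoter to 1.13 at +6.2 kb, and the 4 sites of the CYLD window, with differences of 1.35 at the promoter to 1.86 at −22.4 kb. The 4 upstream TNIP1 sites had differences of −0.21 (−2.5 kb) to 0.66 (−6.3 kb) between the ERβ lines, all with adjusted p of 0.15 or more. Over the tested window bins, 18 (24.7%) were higher and 2 (2.74%) lower, with 10 of 14 at CYLD, 7 of 21 at TNFAIP3 and 1 of 31 at TNIP1 higher.

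The 3 upstream CYLD sites had been listed in SW480 ERβ alone and TNFAIP3 +15.4 kb in the SW480 groups alone, so their calls are a description. Of 25 alternatives, the TNFAIP3 promoter (adjusted p = 0.0423) and −55.8 kb (adjusted p = 0.0467) lost their call in 13 and 15. The replicate block was among these (adjusted p = 0.0615 and 0.0737). The count of 8 was 5 without HT29 ERβ replicate 3, SW480 ERβ replicate 2 or SW480 ERβ replicate 3. With rescaled libraries the TNFAIP3 promoter (0.27, adjusted p = 0.0952) and −55.8 kb (0.36, adjusted p = 0.0895) were no longer called, TNFAIP3 +6.2 kb went to 0.52, and the 4 CYLD sites went to between 0.79 and 1.34. TNIP1 −2.5 kb was then called lower (−0.72, adjusted p = 0.00322), and the genome split went from 7662 higher and 2542 lower to 5550 higher and 7116 lower. The SW480 ERβ input exceeded the HT29 ERβ input by 0.45 (log2) over the CYLD window and by 0.26 over the TNFAIP3 window, and it was lower by 0.0997 over the TNIP1 window and by 0.275 over the TNIP2 window. With these input ratios taken off, the calls were lost at the CYLD promoter (0.91, adjusted p = 0.0521) and at the TNFAIP3 promoter (0.61, adjusted p = 0.170), −55.8 kb (0.66, adjusted p = 0.168) and +6.2 kb (0.86, adjusted p = 0.0508). The TNIP1 promoter (0.88, adjusted p = 0.0467) and TNIP2 −42.8 kb (0.93, adjusted p = 0.0349) were then called higher in SW480.

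The promoters of 15 other genes of the pathway were read in the same way. The list held A20 partners (TAX1BP1, ITCH, RNF11), the linear ubiquitin assembly complex (RNF31, RBCK1, SHARPIN), the CYLD adaptor SPATA2, the deubiquitinase OTUD7B, OTULINL, a relative of OTULIN, and ligases or substrates below the TNF receptor (BIRC2, BIRC3, TRAF2, TRAF6, RIPK1, IKBKG). Listed promoters numbered 3 of 15 in HT29 mock, 2 in HT29 ERβ, 1 in SW480 mock and 5 in SW480 ERβ, against 5.13%, 3.31%, 1.40% and 8.26% of all protein-coding promoters. BIRC3, which encodes the ligase cIAP2, was the only one listed in all groups, with means of 16.5 ± 5.47, 14.7 ± 7.62, 18.4 ± 2.92 and 25.2 ± 7.69 (SD, n = 3) and ranks of 9, 7, 4 and 3. RNF31, the catalytic subunit of the linear ubiquitin ligase, was listed in all but SW480 mock, SPATA2 in HT29 mock alone, and BIRC2, TRAF2 and IKBKG in SW480 ERβ alone.

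Of these 15 promoters 6 passed the test filter. With ERβ in SW480, 2 of the 6 were called higher, beside 18.8% of all bins, and both had been listed in SW480 ERβ alone. They were BIRC2 (1.204, SE 0.32, limma adjusted p = 0.00424) and IKBKG (0.98, SE 0.28, adjusted p = 0.00903), while none was called in HT29, where the smallest unadjusted p was 0.197 at IKBKG. Between the mock lines IKBKG, on the X chromosome, was lower in SW480 (−0.91, limma adjusted p = 0.00896), beside 24.5% of all bins. The input at this bin was also lower in SW480 mock (0.48) than in HT29 mock (0.87). The input ratio was not taken off for these promoters, so its part in the difference was not tested. Between the ERβ lines BIRC2 (1.13) and TRAF2 (1.04) were higher in SW480, 2 of the 6 beside 30.0% of all bins. The interaction was called for IKBKG alone (1.35, adjusted p = 0.0270), beside 7.08% of all bins. BIRC3, like the TNFAIP3 promoter, was called in no comparison of ERβ with mock, as scaled by the authors.

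**Figure D5:**
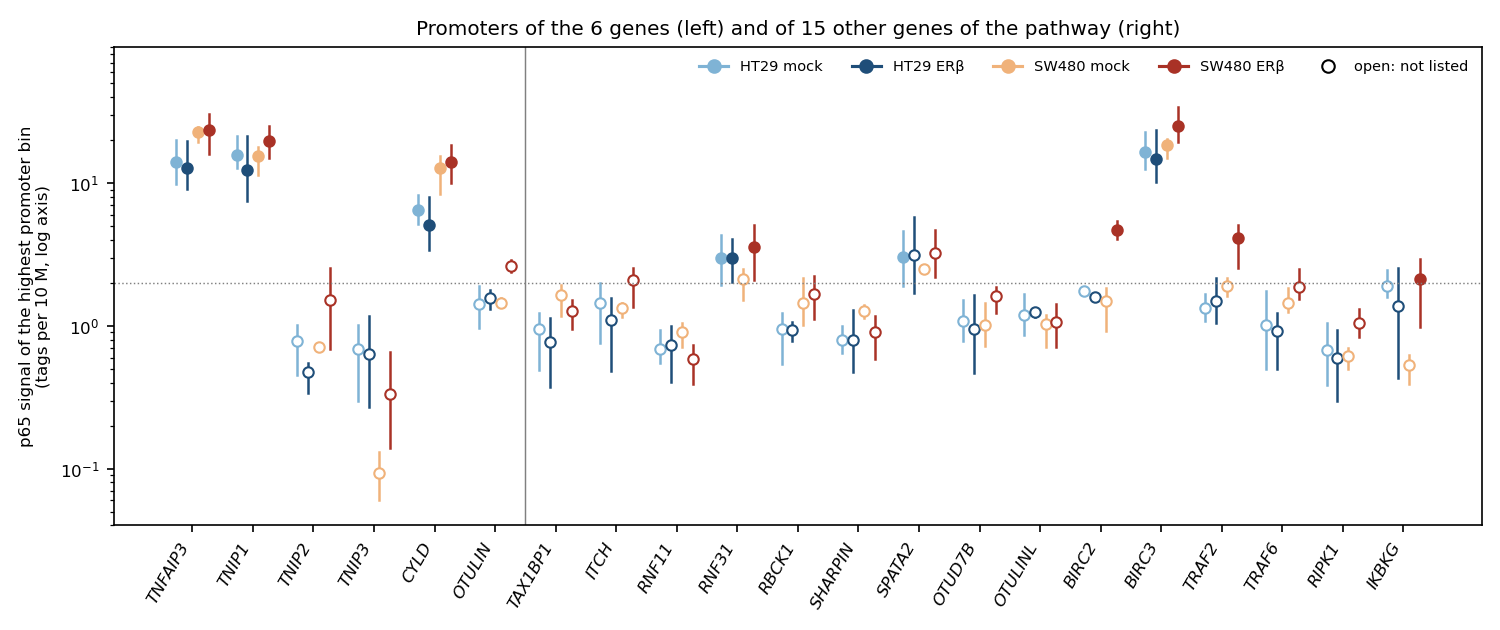
Signal of the highest promoter bin (y axis, log scale, tags per 10 M) of the 6 genes and of 15 other genes of the pathway, as group mean (points, open where not listed) and range of the 3 libraries (lines), with the listing limit of 2 dotted. TNFAIP3, TNIP1, CYLD and BIRC3 are listed in all 4 groups, and TNIP2, TNIP3 and OTULIN in none.

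The promoters whose signal was most like that of TNFAIP3 over the 12 ChIP libraries were sought among 1843 promoters listed in any group. Among the highest Pearson correlations were those of MKNK2 (r = 0.947), CYLD (r = 0.944) and OXSR1 (r = 0.944), beside a median of 0.550. All of these use the same 12 libraries and share their differences in scale.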

How the data were processed

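Per the labels and the study's methods, the authors aligned ChIP-Seq reads to GRCh38 with STAR, kept unique reads and made tracks with HOMER. Each deposited track holds the coverage signal of 1 library, a tag density that the authors had set to a total of 10 M tags of 100 bp, and leaves out values under 0.05. Replicates were not pooled. A track mark in the names is not explained in the sources used here. As these are not counts, edgeR, which the authors used, could not be run.

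Signal was averaged in 200-bp bins with Python 3.11.15, numpy 2.4.6 and pandas 2.3.3. Bins with a mean over the 12 ChIP libraries of at least 0.75 and at least 2 times the mean of the 4 inputs, and the TNFAIP3 interval, were fitted as log2(signal + 1) with limma 3.58.1 (R 4.3.3, variance trend, 4 group means, 2-sided), with Benjamini-Hochberg adjustment over 25546 tests. The pseudocount of 1 understates changes of low bins. The procedure was tested on simulated data. Genes are from GENCODE 44, and promoters run from 1 kb upstream to 100 bp downstream of a TSS. Sequences were read with pysam 0.24.0, exact tests used scipy 1.17.1 and figures matplotlib 3.10.9. Where no site was listed, the highest bin of a gene is named. Of the other pathway genes, those listed or called are named. Some promoters and sequences are not reported here. The members and gene lists were chosen with earlier results of these data known.

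The labels number replicates 1 to 3 in each group. Deviations from the group mean were correlated between same-numbered mock and ERβ libraries. The values were 0.48, 0.19 and 0.19 in HT29 and 0.26, 0.11 and 0.16 in SW480. Each was above the limit of 0.1, so the numbers were taken to pair libraries within a line. In HT29 the limit did not single out these pairs. HT29 mock replicate 2 was closer to HT29 ERβ replicate 3 (0.21), and HT29 mock replicate 3 also passed with HT29 ERβ replicate 2 (0.14). In SW480 the highest correlation between different numbers was 0.037. The main fit and the exact tests did not use the pairs. The replicate block, given as an alternative, did. It called 12210 bins higher with ERβ in SW480, against 4791 in the main fit.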

Additional observations from a re-analysis of the deposited data

Results flagged for a closer look

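The effect of ERβ on p65 signal differed between SW480 and HT29, by the interaction term of the limma fit, at 4 sites of the 6 windows and at 1 promoter of the other pathway genes. The differences of effects (log2) were 1.67 at TNIP1 −4.7 kb, 1.59 at TNIP2 −42.8 kb, 1.52 at CYLD −45.0 kb, 1.36 at CYLD −44.0 kb and 1.35 at the IKBKG promoter. The call was lost in 8, 11 and 12 of 23 alternatives at the first 3, in 4 at CYLD −44.0 kb and in 13 at IKBKG. The CYLD sites and the IKBKG promoter had been listed in SW480 ERβ alone.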

How the results depend on the processing

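Of 998 values of single sites and promoters recomputed under the alternatives, 848 kept direction and call, 120 lost and 11 gained a call, and 19 changed sign; of 195 counts and interval values, 167 stayed the same. Leaving out 1 ChIP library at a time, the calls among the 14 sites numbered 3 to 7 for ERβ in SW480, 3 to 8 between the mock lines, 5 to 10 between the ERβ lines and 0 to 8 for the interaction, and stayed at 0 in HT29. Higher calls over all 25546 bins ranged with them from 2147 to 8493 for ERβ in SW480 and from 595 to 6417 for the interaction. Between the lines they ranged from 1002 to 1888 in mock (lower calls 3081 to 7247) and from 5613 to 9397 in ERβ. With libraries rescaled on shared bins the mock lines gave 10 calls and the interaction 1. The interaction gave 9 calls with the replicate block, 7 without the variance trend and 7 with input subtracted. Beside these, 10261, 1511 and 6301 of the 25546 bins were called higher. Across lines the replicate numbers paired no libraries (correlations −0.06 to 0.04), and there the block lost the calls of TNIP2 −42.8 kb in mock (adjusted p = 0.0601) and of the TNFAIP3 promoter and −55.8 kb in ERβ. Beyond the calls named with the block in the report, it changed none within a line at the sites.

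Values changed sign with rescaled libraries, with other bins or pseudocounts, with the input ratio taken off and without single libraries, and 1 of the 19 was called, the TNFAIP3 promoter in SW480 with rescaled libraries (adjusted p = 0.00167). Outside the 998 values, CYLD −44.0 kb between the mock lines changed sign with the input ratio taken off (−0.89, limma adjusted p = 0.00553). At its low signal that ratio takes off too much, so no conclusion is drawn from the call. ERβ minus mock with rescaled libraries was 0.047 at the TNFAIP3 promoter in HT29 and, in SW480, −0.61 there, −0.35 at TNFAIP3 +15.4 kb, −0.27 at the TNIP1 promoter, −0.25 at CYLD −22.4 kb and −0.47 at the CYLD promoter. At the TNFAIP3 promoter in SW480 it was −0.00082 with a pseudocount of 0.5, −0.043 with the grid shifted by 100 bp and −0.019 with windows of 400 bp. For the promoter interval it was 0.0065 over the 2 grid bins it overlaps. Leaving out 1 library gave −0.48 to 0.13 at the TNFAIP3 promoter in HT29 and, in SW480, −0.21 to 0.24 there, −0.23 to 0.20 for the interval, −0.019 to 0.34 at TNFAIP3 +15.4 kb and −0.14 to 0.32 at the CYLD promoter. The CYLD promoter between mock lines was −0.088 with the input ratio taken off. The number of sites was 13 to 18 and that of listed bins 32 to 48 under other listing limits or without 1 library. Depth is unknown from the tracks, and with 3 libraries a group a difference that was not called can still be present.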
